A study of Homo sapiens with 9 samples.

Results

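The transcription factors and core markers of epithelial-mesenchymal transition (EMT), 10 genes in all, were measured as RNA in 9 cultures of MDA-MB-231, a human line from a triple-negative mammary adenocarcinoma. They are the transcription factors ZEB1, ZEB2, SNAI1, SNAI2, TWIST1 and TWIST2, the cadherins CDH1 (E-cadherin) and CDH2 (N-cadherin), the intermediate filament vimentin (VIM) and the matrix protein fibronectin (FN1). They were picked by symbol, and all 10 were found among the 26364 genes of the count tables. Of these, 8 had counts in at least 1 library and 7 had enough counts to be tested. A lentiviral pLVX construct had been put into the cells, either the empty vector, MEL-18 of wild-type sequence (MEL-18 WT) or its T334A mutant (MEL-18 T334A), labelled as phosphorylation-deficient. MEL-18, encoded by PCGF2, is a RING finger subunit of Polycomb repressive complex PRC1 and is related to BMI1. Each group had 3 libraries given as biological replicates, from cells in DMEM with 10% fetal bovine serum for 48 h, and all 3 groups carry the vector backbone. It is not stated whether the replicates came from separate transductions or whether cells were cloned, so a p-value here reflects only how these cultures vary, and a construct and its transduced line cannot be told apart.

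EMT is the programme by which epithelial cells loosen their junctions and become motile. The Snail proteins (SNAI1, SNAI2) and ZEB proteins are zinc finger repressors that bind E-box DNA, the best known target being the CDH1 promoter, and the TWIST proteins are basic helix-loop-helix factors that bind E-boxes as dimers. Loss of E-cadherin from adherens junctions, gain of N-cadherin, and high vimentin and fibronectin are the markers by which the mesenchymal state is usually read. MDA-MB-231 is widely used as a mesenchymal-like breast cancer line.

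The 9 libraries held 31643722 to 37005302 counts, and 3 counts, the upper limit that a count of 0 allows, came to 0.0814 to 0.0956 CPM (counts scaled to library size, with TMM factors). PCGF2 stood at 22.2 to 23.8 CPM with the vector, 1279 to 1292 CPM with MEL-18 WT and 1389 to 1451 CPM with MEL-18 T334A, and so followed the labels in every library. Between 18956 and 19636 genes had a count in 8 libraries and 20323 in MEL-18 T334A replicate 1. Of the epithelial keratins, KRT8 stood at 299.8 to 324 CPM and KRT18 at 244 to 315 CPM, while EPCAM stood at 7.20 to 12.6 CPM. The fibroblast marker DCN had 1 count in all 9 libraries, and 5 of 7 fibroblast markers stayed under 1 CPM in every library. The others, COL1A1 and PDGFRB, stood at 8.30 to 14.2 CPM and 6.21 to 11.1 CPM.

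Promoter windows of FN1 and ZEB1 are shown, because FN1 had the largest F statistic of the members over the 3 groups and ZEB1 was the only matched member whose windows held the E-box that Snail and ZEB proteins bind. Both come from RefSeq on GRCh38.p14 and run from 250 bases before to 50 after a start site. The promoter table matched 6 of the 10 members with 13 windows (ZEB1 7, CDH2 2, and 1 each for ZEB2, TWIST2, VIM and FN1). CDH1, SNAI1, SNAI2 and TWIST1 had no window and were not searched. Capitals mark the E-box CAGGTG or CACCTG, the cyclic AMP response element TGACGTCA, and the CCAAT box (CCAAT or ATTGG), searched on both strands. None of these matches overlap.
FN1, chr2:215436019-215436318, minus strand: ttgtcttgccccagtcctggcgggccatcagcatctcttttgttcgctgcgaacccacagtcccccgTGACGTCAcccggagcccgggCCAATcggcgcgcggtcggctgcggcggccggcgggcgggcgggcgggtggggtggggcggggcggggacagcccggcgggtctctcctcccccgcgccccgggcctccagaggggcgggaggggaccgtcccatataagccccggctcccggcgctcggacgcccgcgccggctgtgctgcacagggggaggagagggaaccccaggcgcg
ZEB1, start 3 of 7, chr10:31318966-31319265, plus strand: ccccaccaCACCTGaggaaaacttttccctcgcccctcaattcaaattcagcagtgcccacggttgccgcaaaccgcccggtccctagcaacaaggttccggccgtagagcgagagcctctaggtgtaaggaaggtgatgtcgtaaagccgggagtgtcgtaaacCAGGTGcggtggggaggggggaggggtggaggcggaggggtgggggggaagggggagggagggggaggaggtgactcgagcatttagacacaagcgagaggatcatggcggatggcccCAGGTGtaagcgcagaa
The FN1 window held 1 TGACGTCA, found in 1.85% of 35116 human promoter windows, and 1 CCAAT box, found in 34.6%. The ZEB1 window held 3 E-boxes, and a second ZEB1 window held 1. These were the only 2 of 13 member windows with an E-box, against 20.6% of all windows. CDH2 and TWIST2 windows held a CCAAT box, and the VIM and ZEB2 windows held none of the 3 motifs. A match describes letters in these windows and is no measure of binding.

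SNAI1 and FN1 rose with both constructs. With MEL-18 T334A, VIM and CDH2 also rose and SNAI2 fell, while CDH1, TWIST1 and TWIST2 were at or near 0 in all groups. No tested member had an estimated change of 2-fold, though the 95% interval of CDH2 against the vector reached past it with either construct. In bulk RNA, a change in the number of cells that express a gene and a change in its RNA per cell cannot be told apart. With MEL-18 WT 2 of 7 tested members were called at an adjusted p below 0.05, both higher, where 28.8% of 14738 tested genes were called (14.4% higher and 14.4% lower). With MEL-18 T334A against the vector 5 of 7 were called, 4 higher and 1 lower, where 45.9% of genes were called (23.4% higher and 22.5% lower). With MEL-18 T334A against MEL-18 WT 2 of 7 were called, FN1 higher and ZEB1 lower, against 40.9% of genes (21.0% higher and 20% lower). The count for MEL-18 T334A against the vector fell to 3 with DESeq2 and without MEL-18 T334A replicate 2, the calls of SNAI2 and CDH2 being the ones lost. In the comparison of the constructs, ZEB1 alone was called without MEL-18 WT replicate 1. Without MEL-18 T334A replicate 1 the calls of FN1 and ZEB1 were both lost, and VIM alone was called (adjusted p = 0.0408). Replicates stood apart, with no overlap between groups, for 2, 5 and 2 of the 7 members in these comparisons. Over all tested genes this held for 42.7% (21.4% higher, 21.3% lower), 51.5% (26.2% higher, 25.2% lower) and 48.7% (24.7% higher, 24.0% lower). Both constructs are set against the same vector libraries, so these comparisons share controls. Scaling by library totals alone raised the share of higher calls among all called genes from 50.1% to 60.1%, from 51.1% to 64.0% and from 51.2% to 58.4%, while the median change of all genes moved by less than 0.04 on the log2 scale.

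**Figure D1:**
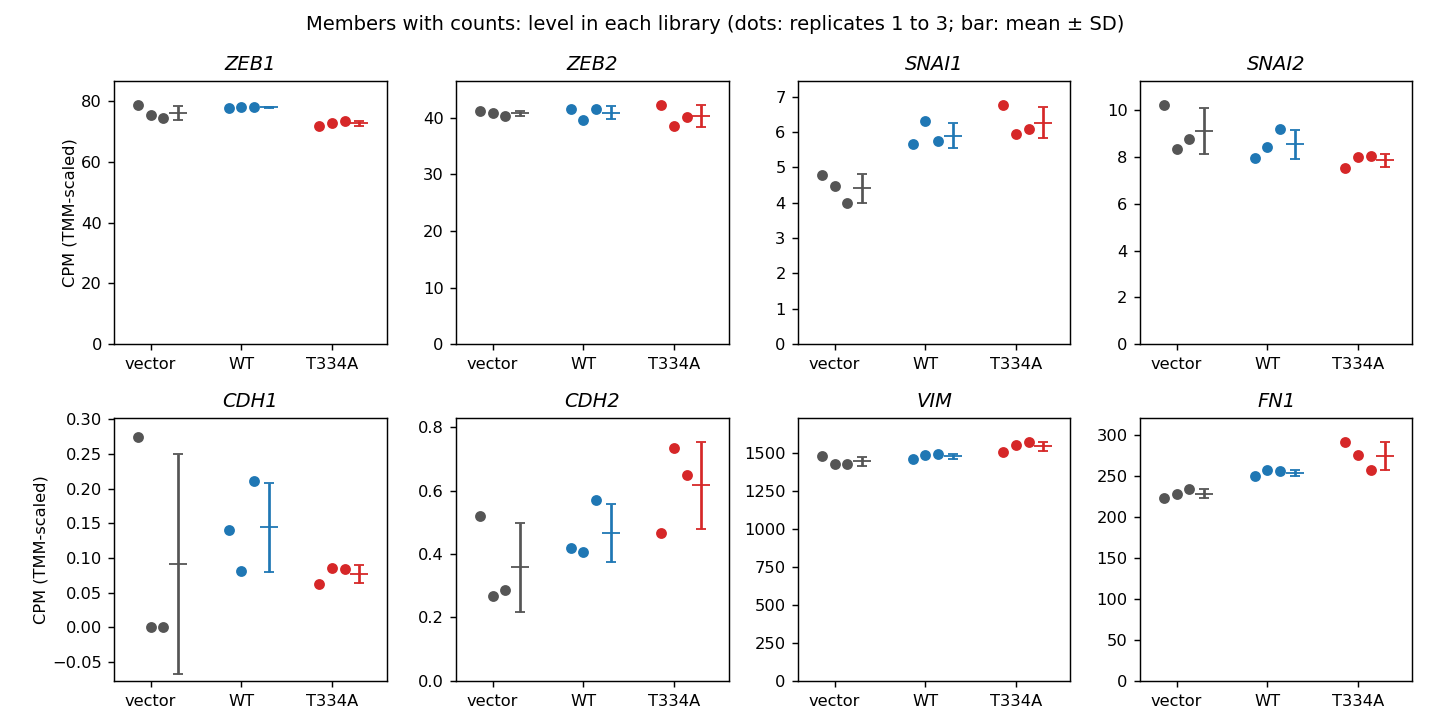
Level, in every library, of the 8 members that had any counts, in CPM over TMM-scaled library sizes, by construct (dots: replicates 1 to 3; bar: mean ± SD, n = 3); axes start at 0 except that of CDH1, whose SD bar reaches below 0. SNAI1 and FN1 sit higher with both constructs, and CDH1 stays below 0.3 CPM.

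**Figure D2:**
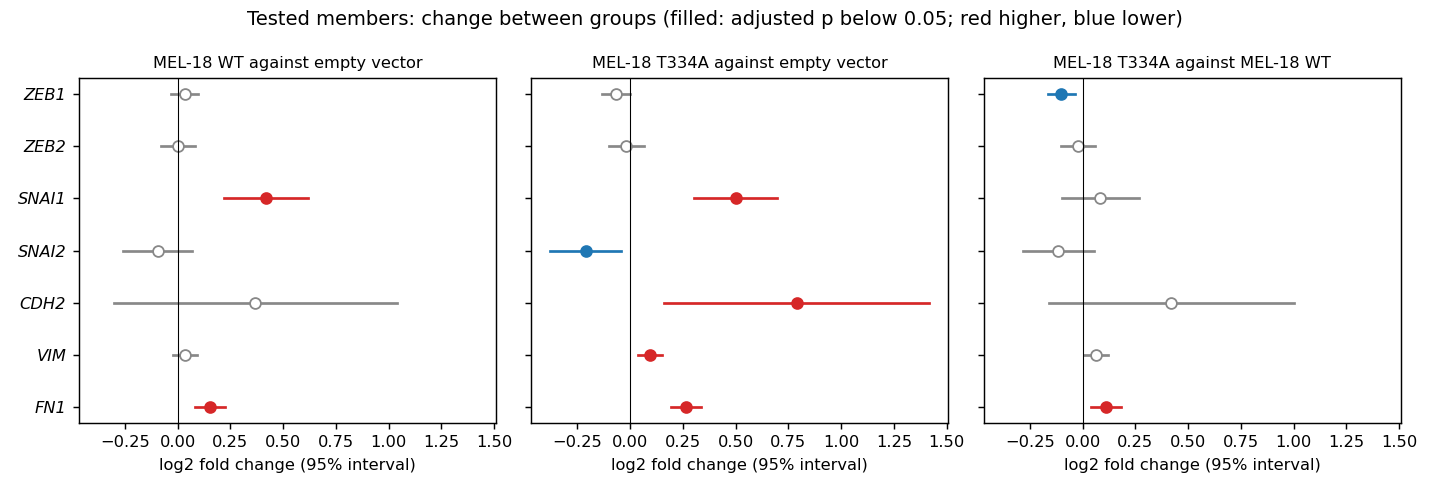
Log2 fold change of the 7 tested members in each comparison with its 95% interval (filled: adjusted p below 0.05). The intervals of CDH2 are the widest, and all changes lie under 1 on the log2 scale.

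ZEB1, the zinc finger and homeodomain repressor, was lower with MEL-18 T334A than with MEL-18 WT. It stood at 78.7, 75.5 and 74.3 CPM with the vector, 77.8, 77.9 and 77.9 CPM with MEL-18 WT, and 71.6, 72.9 and 73.4 CPM with MEL-18 T334A. Every MEL-18 T334A library lay below every other library. ZEB1 fell by 0.10 ± 0.03 on the log2 scale between MEL-18 WT and MEL-18 T334A (log2 fold change ± SE, adjusted p = 0.0127), to 0.933-fold. Against the vector the log2 fold change was 0.03 ± 0.03 with MEL-18 WT (adjusted p = 0.499) and -0.07 ± 0.03 with MEL-18 T334A (adjusted p = 0.0851). The call against MEL-18 WT was lost without MEL-18 T334A replicate 1 (adjusted p = 0.0534). Between the constructs, 57.7% of all tested genes changed more than ZEB1.

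ZEB2, which represses an overlapping set of epithelial genes, stood at 41.2, 40.8 and 40.4 CPM with the vector, 41.5, 39.6 and 41.6 CPM with MEL-18 WT, and 42.3, 38.5 and 40.2 CPM with MEL-18 T334A. The groups overlapped in all 3 comparisons. The log2 fold changes were 0.00 ± 0.04, -0.02 ± 0.04 and -0.02 ± 0.04 (adjusted p = 0.979, 0.731 and 0.711), with 95% intervals from -0.08 to 0.08, from -0.10 to 0.06 and from -0.10 to 0.06. Its 40 chromosomal neighbours had a median log2 change of -0.10 with MEL-18 T334A against the vector and of -0.12 against MEL-18 WT.

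SNAI1, the Snail zinc finger repressor named for the Drosophila gene, rose with both constructs. Its level was 4.79, 4.46 and 3.98 CPM with the vector, 5.65, 6.30 and 5.75 CPM with MEL-18 WT, and 6.76, 5.94 and 6.09 CPM with MEL-18 T334A. Every library of either construct lay above every vector library, and the 2 constructs overlapped. The rise was 1.34-fold with MEL-18 WT (log2 fold change 0.42 ± 0.10, adjusted p = 0.00145) and 1.42-fold with MEL-18 T334A (0.50 ± 0.10, adjusted p = 1.06e-04). Between the constructs the difference was 0.08 ± 0.09 (95% interval -0.10 to 0.27, adjusted p = 0.490). Of all tested genes, 9.91% changed more than SNAI1 with MEL-18 WT and 10.2% with MEL-18 T334A. The median log2 change of its 40 neighbours was 0.00 and 0.03.

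SNAI2 (Slug), a close relative, was lower with MEL-18 T334A. It stood at 10.2, 8.33 and 8.76 CPM with the vector, 7.97, 8.44 and 9.18 CPM with MEL-18 WT, and 7.54, 8.01 and 8.03 CPM with MEL-18 T334A. The MEL-18 T334A libraries lay below every vector library, while MEL-18 WT overlapped both. SNAI2 fell to 0.865-fold with MEL-18 T334A (log2 fold change -0.21 ± 0.08, adjusted p = 0.0376). The change was -0.10 ± 0.08 with MEL-18 WT (adjusted p = 0.414) and -0.11 ± 0.08 between the constructs (adjusted p = 0.279). Without vector replicate 1, the highest library, the change with MEL-18 T334A was -0.12 (adjusted p = 0.293), and the call was also lost under scaling by library totals (adjusted p = 0.0902), with DESeq2 (0.0894) and without MEL-18 T334A replicate 1 (0.126) or 2 (0.0678).

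TWIST1 and TWIST2 had 0 counts in all 9 libraries, which allows up to 0.0956 CPM in the shallowest. Neither was tested, and no fold change is given.

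CDH1, which encodes the E-cadherin of epithelial adherens junctions, was near 0 throughout. It had 9, 0 and 0 counts with the vector, 5, 3 and 7 with MEL-18 WT, and 2, 3 and 3 with MEL-18 T334A. All 9 of the vector's counts were in replicate 1. The ratio of summed counts was 1.54 with MEL-18 WT against the vector (exact 95% interval 0.631 to 3.99) and 0.844 with MEL-18 T334A (0.283 to 2.46), and 0.548 between the constructs (0.201 to 1.38). These intervals cover counting error only. A difference was not detectable at this depth.

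CDH2, the N-cadherin of mesenchymal and neural cells, was also low. It had 17, 9 and 9 counts with the vector, 15, 15 and 19 with MEL-18 WT, and 15, 26 and 23 with MEL-18 T334A, or 0.358 ± 0.140, 0.466 ± 0.092 and 0.616 ± 0.138 CPM (SD, n = 3). The MEL-18 T334A and vector libraries overlapped, since vector replicate 1 stood above MEL-18 T334A replicate 1. CDH2 rose with MEL-18 T334A by 0.79 ± 0.31 on the log2 scale (adjusted p = 0.0369). The summed counts gave a ratio of 1.74, and its exact 95% interval of 1.13 to 2.70 covers counting error only and leaves out the spread between replicates. The changes with MEL-18 WT (0.37 ± 0.33, adjusted p = 0.441) and between the constructs (0.42 ± 0.28, adjusted p = 0.249) were not called. The call was lost with DESeq2 (adjusted p = 0.121), with the shift of chromosomal neighbours taken out (0.0676) and with vector replicate 2 or 3 or MEL-18 T334A replicate 2 or 3 left out (adjusted p from 0.0685 to 0.155).

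VIM, the main intermediate filament protein of mesenchymal cells, was the most abundant member. It stood at 1481, 1432 and 1428 CPM with the vector, 1462, 1489 and 1492 CPM with MEL-18 WT, and 1511, 1553 and 1572 CPM with MEL-18 T334A. Each MEL-18 T334A library lay above every other library. The rise against the vector was 1.07-fold (log2 fold change 0.09 ± 0.03, adjusted p = 0.00661). It was 0.03 ± 0.03 with MEL-18 WT (adjusted p = 0.411) and 0.06 ± 0.03 between the constructs (adjusted p = 0.0793). The last passed the threshold with library totals alone (adjusted p = 0.0102), with DESeq2 (0.0469), with the shift of its chromosomal neighbours taken out (0.0479) and without MEL-18 T334A replicate 1 (0.0408). Of all tested genes, 63.1% changed more than VIM with MEL-18 T334A.

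FN1, a secreted matrix glycoprotein that integrins bind, was the only tested member called higher in all 3 comparisons. It stood at 223, 228 and 234 CPM with the vector, 249.9, 257 and 256 CPM with MEL-18 WT, and 291, 275 and 257 CPM with MEL-18 T334A. All libraries of either construct lay above the vector libraries, and MEL-18 T334A replicate 3 lay among the MEL-18 WT libraries. The rise was 1.11-fold with MEL-18 WT (log2 fold change 0.15 ± 0.03, adjusted p = 0.00112) and 1.2-fold with MEL-18 T334A (0.26 ± 0.03, adjusted p = 5.40e-07). Between the constructs it was 1.08-fold (0.11 ± 0.03, adjusted p = 0.0117). That call was lost without MEL-18 WT replicate 1 (adjusted p = 0.0575) and without MEL-18 T334A replicate 1 (log2 fold change 0.07, adjusted p = 0.121). Of all tested genes, 34.2% changed more than FN1 with MEL-18 WT, 24.5% with MEL-18 T334A and 54.5% between the constructs.

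Levels were also compared per kb of exon (CPM per kb over the union of GENCODE 29 exons), on which genes can be ranked. In the vector libraries VIM led at 775 ± 15.8 per kb, followed by FN1 at 25.1 ± 0.603, ZEB1 at 11.8 ± 0.355, SNAI2 at 3.75 ± 0.408, ZEB2 at 3.06 ± 0.032 and SNAI1 at 2.62 ± 0.240, with CDH2 at 0.080 ± 0.031 and CDH1 at 0.018 ± 0.032. The ranges of VIM, FN1, ZEB1 and SNAI2 did not overlap in this order, nor did those of SNAI2, ZEB2 and SNAI1. With MEL-18 WT the range of SNAI1, 3.35 to 3.74 per kb, overlapped that of SNAI2, 3.28 to 3.78. With MEL-18 T334A SNAI1 at 3.52 to 4.01 lay above SNAI2 at 3.11 to 3.31. The place of ZEB2 depends on the transcript model, since on the principal transcript it stood at 4.28 per kb in the vector libraries, above SNAI2.

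**Figure D3:**
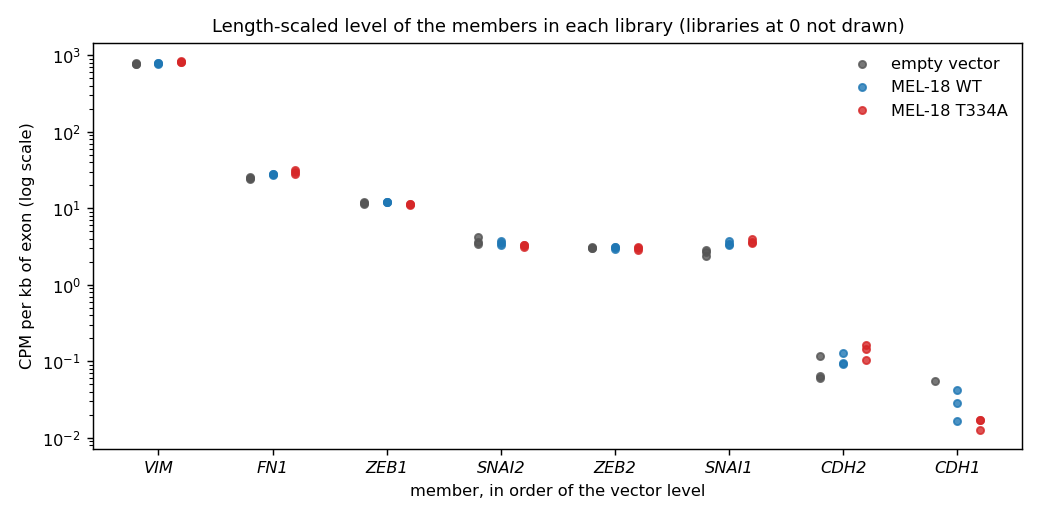
CPM per kb of union exon in each library on a log axis, with members ordered by their level in the vector libraries. VIM lies far above the rest, SNAI2, ZEB2 and SNAI1 lie close together, and CDH2 and CDH1 lie lowest; TWIST1, TWIST2 and the 2 vector libraries without a CDH1 count are not drawn.

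The genes whose levels were most alike those of the leading 2 members were named by the Pearson correlation of log2 CPM over the 9 libraries, among 11947 genes of at least 2 CPM. For FN1 they were ATE1 (r = 0.991), CCSER2 (0.986), ITPR2 (0.981), FAM184A (0.981) and LIFR (0.976). For SNAI1 they were PGD (0.977), TMEM185B (0.977), CUL4A (0.976), C17orf96 (0.970) and GSTM3 (0.966). In all, 360 genes passed 0.9 with FN1 and 177 with SNAI1. These are descriptions, since the points share libraries and groups.

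Antisense transcripts at member loci were not called in any comparison. ZEB1-AS1 summed to 407, 395 and 435 counts over the libraries of the vector, of MEL-18 WT and of MEL-18 T334A, and VIM-AS1 to 312, 287 and 270. ZEB2-AS1 had 1 count in all. Since the counting's use of strand is not given, reads of ZEB1 or VIM and of their antisense partners may not be told apart. Of the miR-200 family, which represses ZEB1 and ZEB2 RNA, the gene rows MIR200A, MIR200B and MIR429 had 0 counts and MIR200C and MIR141 1 each, but poly(A)-selected libraries do not measure mature miRNAs.

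Other genes of the EMT programme were read from lists, with the shares of all tested genes given above as the background. Among 14 tested of 18 other EMT-linked transcription factors, 2 rose and 2 fell with MEL-18 WT, and 6 rose and 0 fell with MEL-18 T334A. Between the constructs 5 were higher and 1 lower in MEL-18 T334A cells, and 3 were called with DESeq2 or without MEL-18 WT replicate 2 or MEL-18 T334A replicate 2. The E protein TCF4, a partner of TWIST factors, stood at 19.8 ± 0.177 CPM with the vector, 17.3 ± 0.442 with MEL-18 WT and 32.4 ± 2.01 with MEL-18 T334A (log2 fold change between the constructs 0.90 ± 0.05). RUNX2, an osteoblast regulator, rose from 11 to 18.6 and 17.7 CPM (0.76 ± 0.06 and 0.68 ± 0.06). PRRX1, a homeobox factor of mesenchyme, rose from 0.798 to 2.22 and 2.54 CPM. SOX4 was higher with MEL-18 T334A than with the vector or MEL-18 WT, at 39.0 against 28.3 and 29.4 CPM.

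Of 16 factors that hold epithelial identity, 11 were tested, and the EMT-blocking factors GRHL2, OVOL1 and OVOL2 had only 9, 6 and 3 counts in the 9 libraries. With MEL-18 WT 1 rose and 2 fell. The 1 that rose was FOXA1 (log2 fold change 0.17, adjusted p = 0.0436), and its call was lost under 10 of 18 alternatives. With MEL-18 T334A 0 rose and 4 fell, and between the constructs 1 was higher and 1 lower. Of the last 2, 1 was called without MEL-18 WT replicate 1 or 3 or MEL-18 T334A replicate 2. KLF4 fell from 40.8 to 33.1 and 31.9 CPM, by 0.30 ± 0.04 and 0.35 ± 0.04 on the log2 scale. TP63, the p53 family factor of basal epithelium, fell from 1.95 to 1.09 and 1.09 CPM. KLF5 stood at 51.9 CPM with the vector, 52.3 CPM with MEL-18 WT and 41.3 CPM with MEL-18 T334A, and the last was called lower than either. ELF3 fell with MEL-18 T334A by 0.56 ± 0.17, and by 0.35 without MEL-18 T334A replicate 3 (adjusted p = 0.0763).

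Epithelial junction and surface genes, by contrast, were called more often higher than lower. Of 29 tested of 32, 14 rose and 4 fell with MEL-18 WT, 16 rose and 3 fell with MEL-18 T334A, and 12 were higher and 5 lower between the constructs. Their median log2 fold changes were 0.12, 0.21 and 0.13, where those of all genes were 0.00, 0.00 and 0.00. The desmosomal cadherin DSC2 stood at 15.5 ± 0.732, 21.8 ± 0.270 and 29.6 ± 0.851 CPM. P-cadherin, CDH3, stood at 4.89 ± 0.170, 11.1 ± 0.292 and 9.29 ± 1.29 CPM. CDS1 rose from 5.35 to 8.0 and 9.98 CPM, and CD24 from 4.37 to 6.50 and 7.16 CPM. The claudins CLDN4 and CLDN7 were higher with MEL-18 T334A than with MEL-18 WT, by 0.50 ± 0.07 and 0.59 ± 0.10. The tricellular junction gene MARVELD2 was lower with MEL-18 T334A than with MEL-18 WT, at 1.40 ± 0.321 against 2.06 ± 0.371 CPM (log2 fold change -0.56 ± 0.18, adjusted p = 0.0121), with overlapping replicates. That call was lost without MEL-18 WT replicate 3 (adjusted p = 0.0968) or MEL-18 T334A replicate 2 (0.0649). The summed luminal markers ran from 892 to 920 CPM with the vector, 943 to 945 CPM with MEL-18 WT and 925 to 962 CPM with MEL-18 T334A. Single markers did not move together. KRT18 ran from 244 to 266 CPM with MEL-18 T334A, against 292 to 304 CPM with the vector. KRT7 ran from 194 to 199 CPM with MEL-18 WT and 249 to 266 CPM with MEL-18 T334A, against 206 to 212 CPM with the vector. KRT19 and EPCAM lay above the vector with both constructs, and KRT8 with MEL-18 WT alone. The part of these markers in the list's result was not tested.

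Of the adherens junction partners of cadherins, 8 were tested, and 1 rose and 1 fell with MEL-18 WT, 4 and 2 with MEL-18 T334A. JUP (plakoglobin) fell from 121 to 91.4 and 89.3 CPM, and nectin-1 (PVRL1) rose from 35.9 to 47.4 and 46.9 CPM. Between the constructs 3 were higher and 1 lower, while 1 in all was called without MEL-18 WT replicate 3 or with the neighbours' shift taken out, and 2 without MEL-18 T334A replicate 2. VCL (vinculin), at 679 CPM with MEL-18 T334A against 556 with the vector, lost its call once the shift of its chromosomal neighbours, 0.23 on the log2 scale, was taken out (adjusted p = 0.0581). CTNNB1, also called higher with MEL-18 T334A than with the vector (log2 fold change 0.12), lost its call in the same way (0.01, adjusted p = 0.836).

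Other cadherins shifted in both directions. Of 8 tested of 17, 4 rose and 3 fell with MEL-18 WT, 5 rose and 2 fell with MEL-18 T334A, and 3 were higher and 2 lower between the constructs. With MEL-18 WT, 4 in all were called with DESeq2, without vector replicate 1 and without MEL-18 WT replicate 1. CDH18 stood at 0.624 ± 0.150, 0.328 ± 0.116 and 4.01 ± 0.228 CPM, 2.68 ± 0.17 higher on the log2 scale with MEL-18 T334A than with the vector. Its fall with MEL-18 WT was not called without vector replicate 1 or MEL-18 WT replicate 1 or 3 (adjusted p from 0.0868 to 0.143). CDH12 ran the other way, at 2.56 ± 0.444, 4.49 ± 0.343 and 1.35 ± 0.096 CPM. The osteoblast cadherin CDH11 stood at 177, 137 and 203 CPM.

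Mesenchymal markers beyond VIM, FN1 and CDH2 were, like the junction and surface genes, called more often higher than lower. Of 29 tested of 34, 14 rose and 8 fell with MEL-18 WT, 15 rose and 5 fell with MEL-18 T334A, and 10 were higher and 2 lower between the constructs, with median log2 changes of 0.04, 0.12 and 0.05. The collagen chain COL6A2 rose to 70.1 ± 6.0 CPM with MEL-18 T334A from 40.7 ± 1.49 CPM. SPOCK1, a proteoglycan gene, rose from 2.56 to 4.19 and 4.42 CPM, and the protease inhibitor SERPINE2 from 13.0 to 19.1 CPM with MEL-18 WT. S100A4, a fibroblast-associated calcium-binding protein gene, fell from 24.0 to 8.21 and 7.24 CPM. The caveolin gene CAV1 and LOXL2 were higher with MEL-18 T334A than with MEL-18 WT, by 0.29 ± 0.03 and 0.49 ± 0.03, and the median log2 change of the 40 neighbours of LOXL2 was 0.33. Summed fibroblast markers ran from 15.4 to 16.3 CPM with the vector. The sum was 18.9 to 21.4 CPM with MEL-18 WT and 19.3 to 25.9 CPM with MEL-18 T334A. Here too single markers did not move together. COL1A1 and PDGFRB, the only ones above 1 CPM in any library, lay above the vector with either construct. COL3A1 had 53 counts with the vector, against 48 and 41 with the constructs, and COL1A2 had 16, against 5 and 11. Their CPM ranges overlapped those of the vector. DCN, LUM and FAP had 1, 7 and 9 counts in all. The part of fibroblast markers in the list's results was not tested.

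Partners of the 2 matrix and filament members moved unevenly. Of 11 tested fibronectin receptors and partners, 3 rose and 2 fell with MEL-18 WT, 3 and 3 with MEL-18 T334A, and 1 was higher and 4 lower between the constructs. The integrin chain ITGB3 stood at 8.20 ± 1.14, 10.0 ± 0.443 and 13.5 ± 1.54 CPM, and its rise with MEL-18 WT was not called without vector replicate 1 or 2 or MEL-18 WT replicate 1 (adjusted p from 0.0602 to 0.137). TNS1 rose from 25.5 to 39.2 and 34.2 CPM, and ITGA3 fell with MEL-18 T334A from 531 to 449.9 CPM. Of 5 tested of 10 vimentin-class filaments and their partners, 3 rose and 1 fell with MEL-18 T334A, and 2 and 1 with MEL-18 WT. Between the constructs 3 were higher and 1 lower. The gene called lower was PLEC each time. Its call was lost under 10 of 18 alternatives with MEL-18 WT (main adjusted p = 0.0460) and under 8 between the constructs (main adjusted p = 0.0374). NES (nestin), which forms filaments with vimentin, stood at 48.8 ± 1.08, 55.0 ± 0.482 and 75.4 ± 3.31 CPM, and SYNM (synemin) at 33.7, 39.9 and 46.8 CPM. GFAP, the astrocyte relative of vimentin, was at 2.08 ± 0.624 CPM with the vector and 4.98 ± 0.573 CPM with MEL-18 T334A.

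Of 24 tested corepressors and protein regulators of Snail, ZEB and Twist, 3 rose and 5 fell with MEL-18 WT, 4 rose and 10 fell with MEL-18 T334A, and 3 were higher and 7 lower between the constructs. With MEL-18 WT, 3 in all were called once the shift of chromosomal neighbours was taken out. PAK1, a kinase that phosphorylates SNAI1, rose from 67.0 to 77.7 and 83.1 CPM. GSK3B, the kinase that marks SNAI1 for degradation, fell to 86.7 from 105 CPM with MEL-18 T334A, and FBXO11, a ubiquitin ligase subunit for SNAI1, to 74.2 from 95.7 CPM. Both calls were lost with that shift taken out (adjusted p = 0.182 and 0.153). Among 26 tested upstream signals, 4 rose and 7 fell with MEL-18 WT, 9 and 4 with MEL-18 T334A, and 14 were higher and 1 lower between the constructs, with median log2 changes of 0.00, 0.07 and 0.13. FGFR1, a fibroblast growth factor receptor, stood at 55.5 ± 0.918, 61.4 ± 0.229 and 80.1 ± 2.01 CPM, with a median log2 change of its neighbours of 0.28 between the constructs. SMAD7, the inhibitory SMAD of TGF-beta signalling, stood at 4.28, 4.69 and 6.90 CPM, and WNT5A at 28.6, 29.2 and 38.2 CPM.

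**Figure D4:**
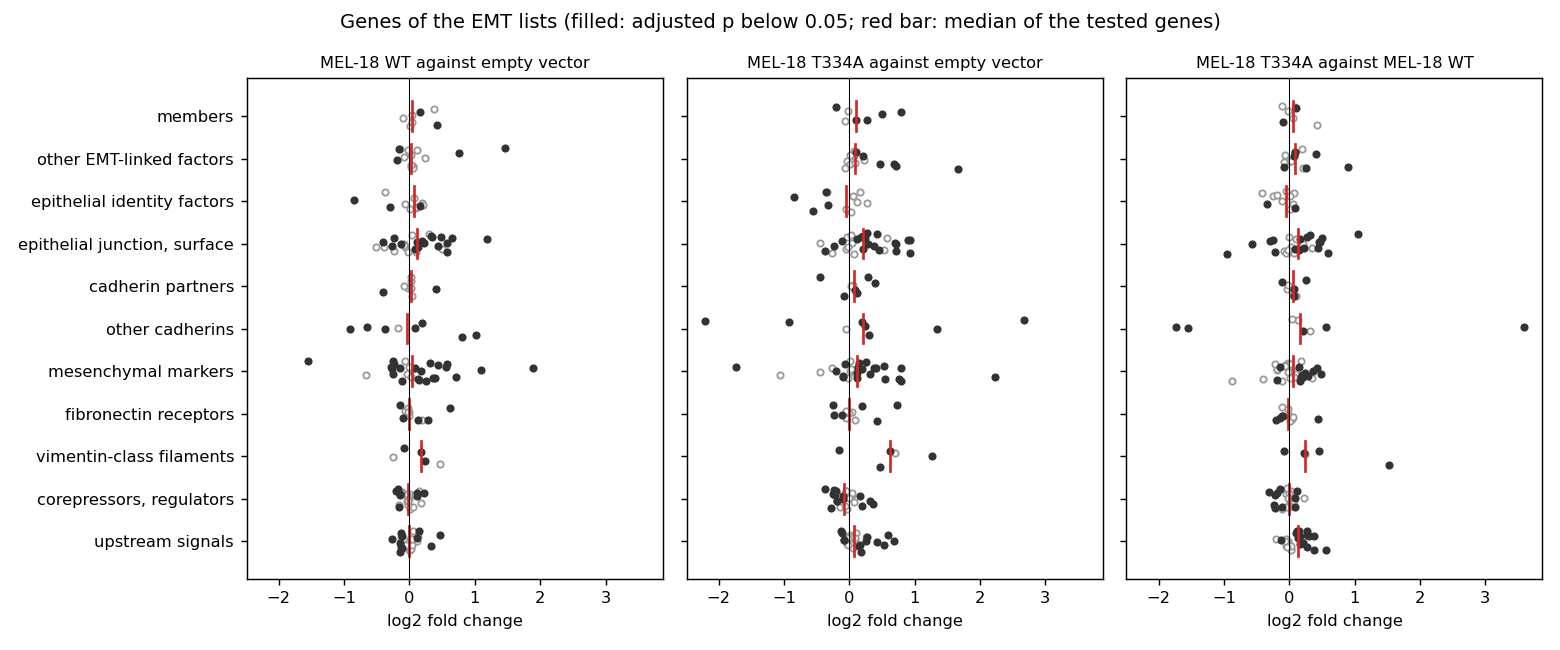
Log2 fold changes of the tested genes of each EMT list in the 3 comparisons (filled: adjusted p below 0.05; red bar: median). Junction and surface genes have medians of 0.12, 0.21 and 0.13, and single cadherins reach beyond 2 on either side with MEL-18 T334A.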

How the data were processed

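Total RNA (400 ng) from 9 cultures was made into poly(A)-selected stranded libraries, per the labels' protocols. The deposited tables hold raw counts, as whole numbers for each gene symbol, which the authors made with CASAVA 1.8, STAR 2.5.3a and featureCounts of Subread 1.5.3 on hg19, per the submitters' processing notes. The annotation, the strand setting and the treatment of multiply mapped reads are, in the sources used here, not given.

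Of 26364 genes, 14738 passed edgeR's filterByExpr and held over 99.9% of each library's counts. Counts were scaled by TMM (factors 0.979 to 1.02) and tested with edgeR 4.0.16 (R 4.3.3), by the two-sided quasi-likelihood F test, with all 9 libraries in 1 fit and a mean for each group. P-values were adjusted by Benjamini-Hochberg over all tested genes, and a gene was called at an adjusted p below 0.05. Each SE is the size of the log2 fold change divided by the root of its F. Levels are mean ± SD, n = 3 per group. Neighbour medians use the 20 tested genes on each side by RefSeq order. Replicates of a group differed by more than sampling noise (chi-square per degree of freedom 1.51 to 4.12). Fits were tested on simulated counts.

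Named were PCGF2, all members, from each list and comparison up to 4 called genes of at least 1 CPM with the largest change, antisense transcripts, markers and, for 2 members, the 5 genes most alike. The text gives a part of these. Members and lists were chosen with earlier results of these data known. Alternatives were DESeq2 1.42.0, limma voom (limma 3.58.1), RLE factors, library totals, 2 other filters, the compared groups alone, a replicate block, an offset for neighbours and each library left out.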

Additional observations from a re-analysis of the deposited data

How the results depend on the processing

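SNAI1 and FN1 against the vector with either construct, and VIM with MEL-18 T334A, kept direction and call under all 18 alternatives. The number of members called with MEL-18 T334A against the vector, 5, became 3 with DESeq2 and 3 with the replicate block (SNAI2 at an adjusted p of 0.0543 and CDH2 at 0.0553), and ran from 3 to 5 with each library left out. Between the constructs the number ran from 1 to 2 with each library left out, and with MEL-18 WT against the vector it stayed at 2. VIM was called between the constructs, besides FN1 and ZEB1, with DESeq2 (adjusted p = 0.0469), library totals alone (0.0102) and the neighbour offset (0.0479). The counts over all genes, 4242 with MEL-18 WT, 6765 with MEL-18 T334A and 6034 between the constructs, stayed within 1.5 times these values under each alternative, at 3136 to 4760, 5693 to 6878 and 4435 to 6304. No pairing of the samples by replicate number was seen. With group means taken out, the 9 same-numbered pairs correlated at -0.079 to 0.014. Of 9 libraries, 0 correlated best with their own number in both other groups. ZEB2, near 0 in all comparisons, changed sign with library totals (0.0193 with MEL-18 T334A against the vector) and with the neighbour offset (-0.0216 with MEL-18 WT, 0.0739 with MEL-18 T334A, 0.0955 between the constructs). With each library left out it ran from -0.0111 to 0.0233 with MEL-18 WT, from -0.0476 to 0.0189 with MEL-18 T334A and from -0.0527 to 0.0138 between the constructs. The sign changed without vector replicate 3, MEL-18 WT replicate 1 or 3, or MEL-18 T334A replicate 2, and the cause was not tested. Of 375 fold changes of members under alternatives, 346 kept direction and side of the threshold, 16 lost a call and 4 gained one. Low or absent counts limit what can be said of CDH1, CDH2, TWIST1 and TWIST2.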
